A study of Mus musculus with 9 samples.

Results

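Lysosome and autophagy genes were followed in cultured AdvSca1-SM cells, the Sca1-expressing vascular progenitor cells that arise from smooth muscle. The 44 genes were a fixed list chosen by function, not by their values: 10 cathepsins, 8 other lysosomal hydrolases, 6 lysosomal membrane proteins, 3 proteins of the lysosomal lumen that are not hydrolases, 3 subunits of the V-ATPase proton pump, the 3 MiT transcription factors Tfeb, Tfe3 and Mitf, and 11 genes of the autophagy machinery. They were found by symbol among the 55416 Ensembl genes of the count table, and all 44 were present. Of these, 43 passed the filter on low counts and were tested. The exception was Ctss, which encodes the cathepsin of antigen-presenting cells and did not exceed 3 counts in any library.

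Lysosomes are acidic organelles in which hydrolases break down protein, lipid, glycan and nucleic acid. The V-ATPase pumps protons into the lumen, cathepsins cut proteins there, and membrane proteins such as Lamp1 and Lamp2 line the organelle. Autophagy delivers cytoplasmic cargo to lysosomes in vesicles marked by lipidated LC3 and GABARAP proteins, to which receptors such as p62, the product of Sqstm1, bind. The MiT factors bind CACGTG-containing elements in the promoters of many of these genes and are held in the cytoplasm when mTORC1 is active on the lysosomal surface. In fibroblast-like cells the secreted forms of several cathepsins also act on matrix proteins.

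Each of the 3 groups had 3 libraries of independent replicates, and all cells received 0.1% DMSO for 72 h. The groups were Stem (no TGF-β1, no PFI-3), TGF-β (5 ng/mL TGF-β1) and Both (5 ng/mL TGF-β1 with 50 μM PFI-3, a bromodomain inhibitor directed at the chromatin remodeler Brg1). The cells had been sorted from aortas and carotid arteries pooled from SM22α-Cre-YFP mice, in which a smooth muscle promoter drives Cre, and were passaged before use; Sca1-expressing smooth muscle cells of the media may be among them. According to the methods of the study the Stem cells were kept in stem cell medium, which holds serum, basic fibroblast growth factor and epidermal growth factor. The labels put the stimulated cells in low-serum DMEM. Medium, with its serum and growth factors, and TGF-β1 therefore cannot be told apart in the comparison of Stem with TGF-β. TGF-β and Both differed in PFI-3. In these bulk samples, fewer cells of a type and less RNA per cell cannot be told apart.

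Total counts per library were between 35686291 and 37262375 in Stem, between 39453841 and 43194424 in TGF-β, and between 42683050 and 47741128 in Both. Spearman's correlation across genes between replicates had a lowest value of 0.995, and the biological coefficient of variation from edgeR was 6.13%. The progenitor markers Ly6a, Pdgfra, Cd34 and Scara5 summed to between 50475 and 58767 normalized counts in Stem, against 6361 to 6638 with TGF-β1 alone and 6784 to 7423 with PFI-3 added. The label of the extraction step names hepatic tissue, but Serpina1a and Fga were at 0 in every library. Alb, Apoa1, Ttr and Fgb did not exceed 1.76 normalized counts. The hepatocyte list summed to 243 to 283 in Stem, 22.3 to 28.1 in TGF-β and 18.8 to 27.2 in Both, and the Stem sum was mostly Ahsg. From Stem to TGF-β, Ahsg fell from 260 ± 20.6 to 13.0 ± 2.82, whereas Apoa2 was at 5.38 ± 1.94 and 10.6 ± 1.12. With raw counts of 3, 6 and 6 in Stem, Apoa2 passed the low-count filter only through the stimulated libraries. No conclusion is drawn from its test (adjusted p = 0.0359, edgeR, and 0.0572 with the replicate number as a block). Of the 15 macrophage markers checked because macrophages are rich in lysosomes, 8 (Adgre1, Fcgr1, Itgam, C1qa, C1qb, C1qc, Tyrobp and Aif1) were at 0 in all libraries, and the summed list was 513 to 612 in Stem, 324 to 361 in TGF-β and 443 to 461 in Both. Of the 8 endothelial markers, Cldn5 was at 0 in all libraries and the list summed to 115 to 252 in Stem, 60.4 to 93.7 in TGF-β and 52.7 to 70.1 in Both. Its members differed: Emcn and Tek fell from Stem to TGF-β, from 104 ± 65.6 to 8.27 ± 8.19 and from 45.7 ± 7.84 to 18.3 ± 3.19 normalized counts, whereas Kdr was at 0.721 ± 1.25 in Stem and 26.1 ± 3.86 in TGF-β. The 6 smooth muscle markers summed to 10606 to 13325 in Stem, 22688 to 25148 in TGF-β and 17395 to 18334 in Both. This sum was mostly Acta2 and Tagln, which rose from Stem to TGF-β, while Myh11 and Lmod1 fell, from 263 ± 68.3 to 88.3 ± 19.9 and from 504 ± 6.08 to 311 ± 20.2, and Cnn1 and Smtn did not pass.

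The 44 genes together took 1.06% ± 0.0122 of all counts in Stem, 1.29% ± 0.0307 in the TGF-β group and 1.22% ± 0.0274 in Both (mean ± SD, n = 3), and the ranges of the groups did not overlap. Of the smooth muscle markers, Acta2 and Tagln had the same order of group means. Myh11, Lmod1, Cnn1 and Smtn were highest in Stem and lowest in Both. The part of these markers in this result was not tested. The share of counts is weighted towards genes with many counts, so it does not show a rise of the list as a whole. Mean normalized counts from Stem to TGF-β went from 22818 to 57486 for Ctsd, 26528 to 55748 for Ctsl and 16625 to 49980 for Sqstm1. Of the tested genes, 26 rose and 10 fell between these groups, with Ctsb among the falls, from 39798 to 28042. Per kilobase of exons, the highest mean levels in Stem were those of Psap, the precursor of the saposins that activate sphingolipid hydrolases, with 15094 normalized counts per kb, Lamp1 with 13079, and Ctsd, the aspartic cathepsin, with 9706. In TGF-β the order at the top was Ctsd with 24452 normalized counts per kb, Lamp1 with 18014, Sqstm1 with 14893 and Psap with 14436. At the low end stood the MiT factor Tfeb, with 45.7 normalized counts per kb in Stem, Ctsc, with 4.68 in Stem against 147 in TGF-β, and Cd68, the macrosialin of macrophage lysosomes, with 2.81 in Stem against 10.5 in TGF-β. Levels therefore spanned more than 3 orders of magnitude, and in Stem Ctsc and Cd68 were the tested genes whose place in the order rested on the fewest counts.

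**Figure D1:**
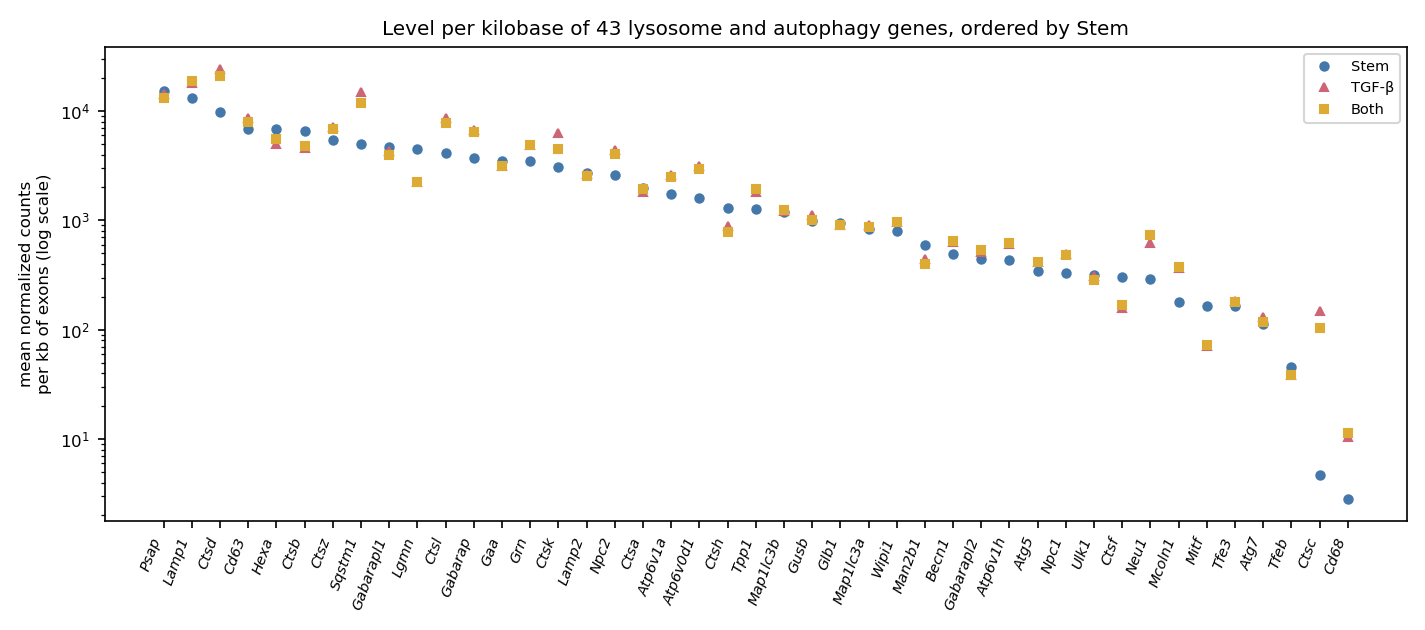
Mean normalized counts per kb of exons (y axis, log scale) for the 43 tested lysosome and autophagy genes (x axis, ordered by the Stem level), with circles for Stem, triangles for TGF-β and squares for Both (n = 3 each). Psap stands highest in Stem at 15094, and Ctsc shows the widest gap between groups, at 4.68 in Stem and 147 in TGF-β.

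The first comparison asked how these genes differed between progenitor cells and cells stimulated with TGF-β1 in another medium. Most of them were higher in TGF-β, with 26 of the 43 up and 10 down. The other 7 did not pass the threshold of an adjusted p of 0.05 in edgeR's quasi-likelihood test. Over all 14879 genes tested, 37.3% rose and 37.7% fell, so calls were frequent in both directions in the table as a whole. The median log2 fold change was 0.26 over the 43 genes and -0.0027 over all genes tested. With the further requirement of a 2-fold change, 8 genes rose (Ctsc, Cd68, Sqstm1, Ctsd, Neu1, Ctsl, Ctsk and Mcoln1) and 2 fell (Mitf and Lgmn), against 10.6% and 14.5% of all genes. Cd68 is in this count although it passed the low-count filter only through the stimulated libraries, so no conclusion is drawn from its place there. Scaling to total counts in place of TMM lowered every estimate by about the same amount, the median of all genes to -0.12. The split of the list was then 22 higher and 14 lower, with 4 genes (Ctsc, Cd68, Sqstm1 and Ctsd) past 2-fold higher. Ctsf, at -1.07 on the log2 scale, then joined Mitf and Lgmn past 2-fold lower. The shares of all genes called under that scaling are not given here.

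**Figure D2:**
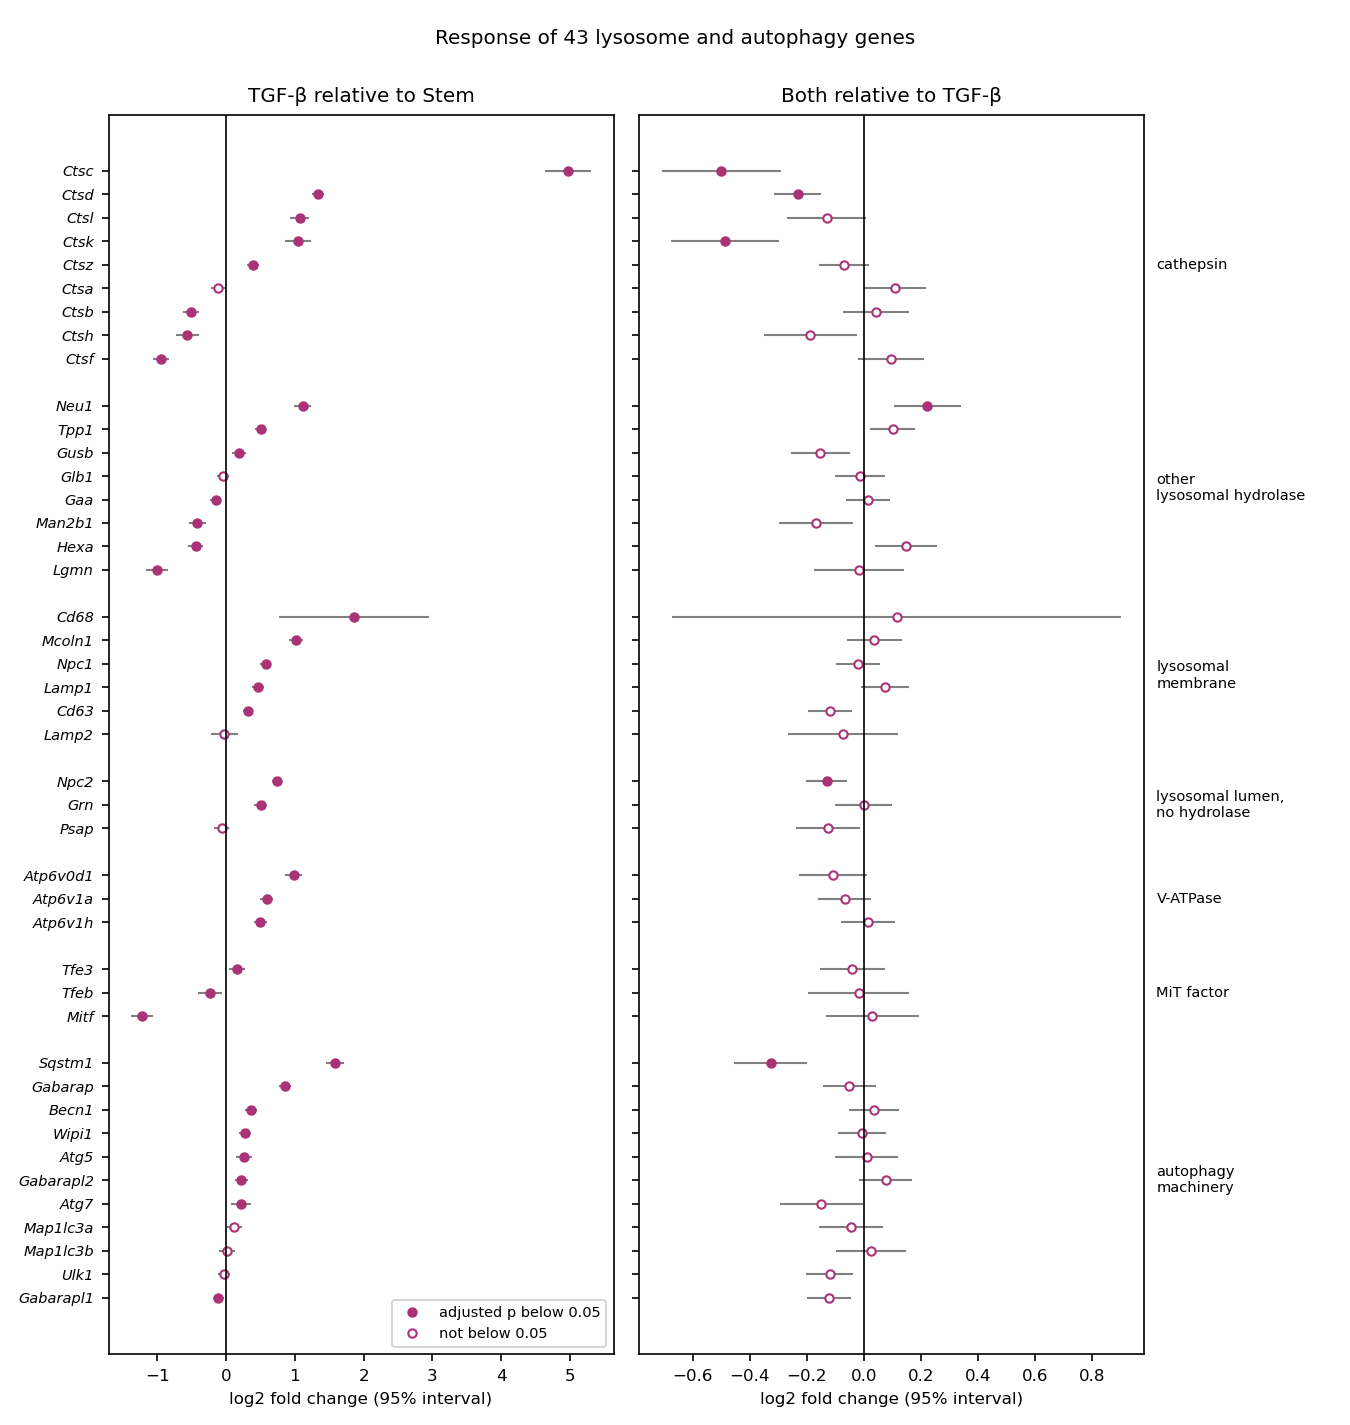
Log2 fold change (x axes) with its 95% interval for each of the 43 tested genes (y axis, grouped by role), for TGF-β relative to Stem on the left and Both relative to TGF-β on the right, on different scales. Filled circles had an adjusted p below 0.05. The left panel runs from Mitf at -1.22 to Ctsc at 4.97, and the circles of the right panel stay between -0.50 and 0.22.

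Cathepsins moved in both directions, with 5 of 9 up and 3 down (55.6% and 33.3%, beside 37.3% and 37.7% of all genes tested). The largest change of the whole list was that of Ctsc (ENSMUSG00000030560), the dipeptidyl peptidase that activates granule serine proteases: it had 24.1, 25.0 and 32.5 normalized counts in the Stem libraries, 741, 946 and 874 in TGF-β, and 547, 663 and 605 in Both. No Stem library came near the other groups, and TGF-β and Both did not overlap. The log2 fold change from Stem to TGF-β was 4.97 ± 0.15 (SE), a 31.3-fold rise (adjusted p = 2.98e-11, edgeR).

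Ctsd (ENSMUSG00000007891), the major aspartic protease of lysosomes, had 22974, 23375 and 22106 normalized counts in the Stem libraries, 56806, 58831 and 56822 in TGF-β, and 48465, 49886 and 48480.5 in Both. It rose 2.52-fold from Stem to TGF-β (log2 fold change 1.33 ± 0.039, adjusted p = 2.13e-11, edgeR), and its 3 groups were fully separated. Ctsl (ENSMUSG00000021477), a broad cysteine endopeptidase, had 25352, 28811 and 25420.0 normalized counts in the Stem libraries, 52519, 59042 and 55683 in TGF-β, and 49068, 54329 and 49356 in Both. Its rise was 2.10-fold (log2 fold change 1.07 ± 0.064, adjusted p = 1.41e-08, edgeR), and TGF-β and Both overlapped.

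Ctsk (ENSMUSG00000028111), the collagen-cleaving cathepsin best known from osteoclasts, had 4134, 5552 and 4243 normalized counts in the Stem libraries, 9496, 9789 and 9464 in TGF-β, and 6640.1, 7019.9 and 6866 in Both. One Stem library, replicate 2, lay above the other two, and none of the groups overlapped. The rise from Stem to TGF-β was 2.06-fold (log2 fold change 1.05 ± 0.088, adjusted p = 3.63e-07, edgeR); without Stem replicate 1 it was 0.97 and without Stem replicate 3 it was 0.99 on the log2 scale, below the 2-fold line. Ctsz, a carboxypeptidase, rose by 0.39 ± 0.040.

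The other cathepsins went down or did not pass. Ctsf, a cysteine cathepsin, fell by 0.95 ± 0.052 on the log2 scale, from 1529 ± 91.0 to 792 ± 10.5 normalized counts (adjusted p = 6.50e-09, edgeR). Ctsh, an aminopeptidase, fell by 0.56 ± 0.075, and Ctsb, a cysteine protease with exopeptidase activity, fell by 0.51 ± 0.053, from 39798 ± 2653 to 28042 ± 1117 normalized counts. Ctsa, which shields Neu1 and Glb1 in a complex, had a log2 fold change of -0.11 (95% interval -0.22 to -0.0018, adjusted p = 0.0614, edgeR), and its Stem and TGF-β libraries overlapped; with the replicate block it passed (adjusted p = 0.0240, edgeR).

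Of the 8 other hydrolases 3 rose and 4 fell, or 37.5% and 50%, beside 37.3% and 37.7% of all genes tested, and the sialidase Neu1 and the legumain gene Lgmn stood at opposite ends. Neu1 (ENSMUSG00000007038) had 1148, 1039.9 and 1050.5 normalized counts in the Stem libraries, 2447, 2282 and 2279 in TGF-β, and 2853, 2565 and 2756 in Both, so that the 3 groups lay in 3 separate ranges. It rose 2.16-fold from Stem to TGF-β (log2 fold change 1.11 ± 0.056, adjusted p = 2.89e-09, edgeR). Lgmn (ENSMUSG00000021190), the asparaginyl endopeptidase that processes several cathepsins, had 11921, 9275 and 10348 normalized counts in the Stem libraries, 5449, 5177 and 5082 in TGF-β, and 5137, 5202 and 5188 in Both. It fell by 1.01 ± 0.072 on the log2 scale (adjusted p = 7.96e-08, edgeR), with the Stem libraries above all others and no gap between TGF-β and Both. This value sits on the 2-fold line: it ranged from -1.08 to -0.90 with single libraries left out, and Lgmn no longer counted as past 2-fold without Stem replicate 1, TGF-β replicate 2, TGF-β replicate 3 or any single library of Both.

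The remaining hydrolases changed less. Tpp1, the tripeptidyl peptidase lost in a form of Batten disease, rose by 0.50 ± 0.036 and Gusb, the β-glucuronidase, by 0.19 ± 0.047. The call of Gusb was lost when scaled to total counts (0.073, adjusted p = 0.138, edgeR). Hexa, the α subunit of β-hexosaminidase, fell by 0.44 ± 0.050, Man2b1, the acid α-mannosidase, by 0.42 ± 0.059 and Gaa, the acid α-glucosidase, by 0.15 ± 0.035. Glb1, the β-galactosidase used as a senescence marker, had a log2 fold change of -0.049 (95% interval -0.14 to 0.038, adjusted p = 0.284, edgeR).

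Lysosomal membrane genes rose in 5 of 6 cases, the low-count gene Cd68 among them, where 37.3% of all genes rose. Mcoln1 (ENSMUSG00000004567), the lysosomal calcium channel TRPML1, had 1416, 1363 and 1269 normalized counts in the Stem libraries, 2747, 2742 and 2736 in TGF-β, and 2701, 2859 and 2879 in Both. All Stem libraries were below all others, and TGF-β and Both overlapped. The rise was 2.03-fold (log2 fold change 1.02 ± 0.047, adjusted p = 1.17e-09, edgeR), or 0.98 on the log2 scale without Stem replicate 3.

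Cd68 (ENSMUSG00000018774) was barely expressed, with 7.33, 1.09 and 2.16 normalized counts in the Stem libraries, 10.8, 15.2 and 13.7 in TGF-β, and 15.3, 10.9 and 16.7 in Both. With raw counts of 7, 1 and 2 in Stem, it passed the low-count filter only through the stimulated libraries, so no conclusion is drawn from its test. Its log2 fold change of 1.86 had an SE of 0.50 and a 95% interval of 0.77 to 2.94 (adjusted p = 0.00475, edgeR). No Stem library reached the others. The value ranged from 1.45 to 2.94 with single libraries left out, the highest without Stem replicate 1. Of the other macrophage markers tested, Csf1r rose from 28.5 ± 8.74 to 76.1 ± 19.5 normalized counts (adjusted p = 2.07e-04, edgeR), and was at 138 ± 4.22 in Both. Cd14, which made up most of the summed list in Stem, fell from 408 ± 48.5 to 137 ± 6.56, while Lyz2 and Cx3cr1 did not pass (adjusted p = 0.606 and 0.0700, edgeR). The part of these markers in the Cd68 result was not tested. Npc1, the cholesterol exporter of the lysosomal membrane, rose by 0.58 ± 0.036, Lamp1 by 0.46 ± 0.039 and the tetraspanin Cd63 by 0.32 ± 0.035. Lamp2 varied more between Stem libraries (22843, 30134 and 25024 normalized counts, a coefficient of variation of 14.4%), and its log2 fold change was -0.023 with a 95% interval of -0.22 to 0.17 (adjusted p = 0.819, edgeR).

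Of the luminal proteins that are not hydrolases, Npc2, which hands cholesterol to Npc1, had 14224, 14213 and 14227 normalized counts in the Stem libraries, 23613, 24174 and 23766 in TGF-β, and 21909, 21433 and 22035 in Both. The Stem replicates differed little, with a coefficient of variation of 0.0542%, and all 3 groups were apart. Npc2 rose by 0.75 ± 0.033 from Stem to TGF-β (adjusted p = 9.30e-10, edgeR). Grn, the progranulin gene, rose by 0.50 ± 0.045, while Psap had a log2 fold change of -0.064 (95% interval -0.18 to 0.047, adjusted p = 0.271, edgeR).

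All 3 V-ATPase genes of the list rose: Atp6v0d1, of the membrane sector, by 0.98 ± 0.056, and the cytosolic sector subunits Atp6v1a, the catalytic subunit, by 0.59 ± 0.043 and Atp6v1h, a regulatory subunit, by 0.49 ± 0.043. Normalized counts went from 2854 ± 179 to 5649 ± 206 for Atp6v0d1, from 10538 ± 598 to 15847 ± 138 for Atp6v1a and from 4219 ± 216 to 5941 ± 49.7 for Atp6v1h. The 16 other subunits and accessory proteins of the pump, listed separately by function, rose as well, all with an adjusted p below 0.05 in edgeR's test. This made 19 of 19, where 37.3% of all genes rose, with a median log2 fold change of 0.88 and a lowest value of 0.28. The list was set with earlier results of these data known, and the low-count isoform Atp6v0d2 is in this count. The widest changes among the other subunits were those of Atp6v0e2, an e subunit isoform, from 58.9 ± 3.24 to 416 ± 23.6 normalized counts (log2 fold change 2.82 ± 0.10), and Atp6v1g1, a stalk subunit, from 3123 ± 117 to 9223 ± 369 (1.56 ± 0.044). The ubiquitous isoform Atp6v0e, in contrast, had the lowest value, 0.28 ± 0.048. Both accessory proteins, Atp6ap1 and Atp6ap2, rose, by 0.88 ± 0.043 and 1.14 ± 0.051. The subunits other than Atp6v0e2 and Atp6v1g1 were named here after their values were seen.

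**Figure D3:**
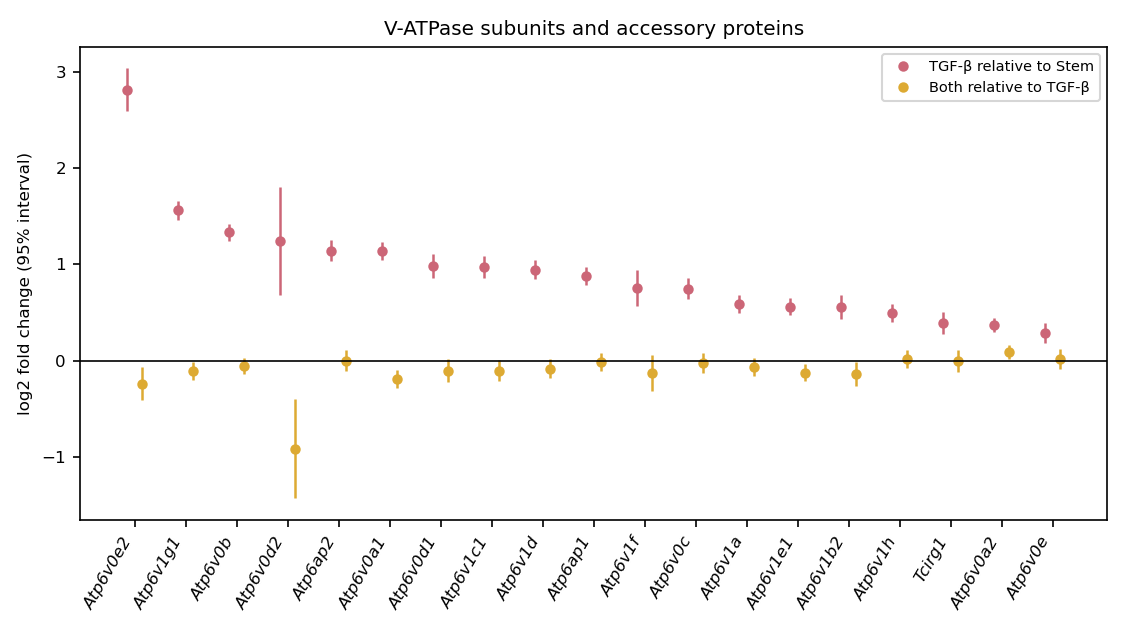
Log2 fold change with its 95% interval (y axis) for the 19 V-ATPase subunits and accessory proteins (x axis), for TGF-β relative to Stem and for Both relative to TGF-β. All 19 intervals of the first comparison lie above 0, from Atp6v0e at 0.28 to Atp6v0e2 at 2.82, and in the second the low-count isoform Atp6v0d2 stands apart at -0.92.

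Because MiT factors are known to bind an 8-base palindrome, TCACGTGA, the promoters of these genes were searched for it. Promoters were the RefSeq windows of GRCm38.p6 from 250 bases before to 50 bases after a start site, which were at hand for 38 of the 44 genes (all but Becn1, Npc1, Map1lc3a, Ctsb, Ctsh and Atp6v1h), and both strands were covered since the motif is its own reverse complement. TCACGTGA was present in 5 of 38 (13.2%): Atp6v0d1, Atp6v1a, Ctsa, Ctsd and Mcoln1. It was present in 1.12% of the 27025 genes of the promoter table, in 2.19% of the tested genes that had a promoter, and in 11 of 119 (9.24%) other lysosome and autophagy genes. Its 6-base core, CACGTG, which every TCACGTGA contains, was found in 13 of 38 (34.2%), against 8.09% of all genes in the table and 11.6% of those tested. Of the genes with the full palindrome, Atp6v0d1, Atp6v1a, Ctsd and Mcoln1 rose from Stem to TGF-β and Ctsa did not pass the test. Of the 11 other carriers, Atg3, Atp6v0e, Cd164, Clcn7, Dpp7, Gla and Vps33a rose, Cln3 and Igf2r fell, and Gnptg and Vps26a did not pass. Of all tested genes of the 2 lists these carriers come from, 60.5% and 49% rose, and no difference between carriers and the rest was tested. A match is a description of the sequence and not a measured binding site. The upstream stretches of 4 of these genes are shown because they carry the palindrome, and that of Lamp1 because it holds 4 copies of the core; each is a 100-base window of GRCm38.p6 read 5′ to 3′ on the strand of the gene, with TCACGTGA in capitals, or CACGTG in the case of Lamp1:
Ctsd, chr7:142387873-142387972, minus strand: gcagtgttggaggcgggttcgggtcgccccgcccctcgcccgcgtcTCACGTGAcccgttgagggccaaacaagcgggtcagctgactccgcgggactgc
Mcoln1, chr8:3500419-3500518, plus strand: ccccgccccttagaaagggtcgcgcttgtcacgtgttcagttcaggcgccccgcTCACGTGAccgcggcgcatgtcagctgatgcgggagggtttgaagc
Atp6v1a, chr16:44139340-44139439, minus strand: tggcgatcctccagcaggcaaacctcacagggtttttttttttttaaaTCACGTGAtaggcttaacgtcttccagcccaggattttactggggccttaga
Ctsa, chr2:164833673-164833772, plus strand: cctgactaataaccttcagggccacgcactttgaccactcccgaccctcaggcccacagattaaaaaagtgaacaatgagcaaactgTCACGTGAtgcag
Lamp1, chr8:13159061-13159160, plus strand: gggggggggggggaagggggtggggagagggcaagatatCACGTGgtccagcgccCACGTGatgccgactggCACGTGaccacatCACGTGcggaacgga
The palindrome began 99 bases before the start site in Ctsd, 46 in Mcoln1, 132 in Atp6v1a and 13 in Ctsa, whose promoter held a further copy 4 bases past the start, outside the window shown, and the cores of Lamp1 lay between 61 and 15 bases before it.

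Of the MiT factors themselves 1 rose and 2 fell, where 37.3% of all genes tested rose and 37.7% fell. Mitf (ENSMUSG00000035158) had 963, 1130.1 and 977 normalized counts in the Stem libraries, 413, 458 and 445 in TGF-β, and 444, 446 and 455 in Both. Every Stem library was above every stimulated library, and Mitf fell by 1.22 ± 0.071 on the log2 scale, the largest decrease of the list (adjusted p = 1.16e-08, edgeR). Tfeb (ENSMUSG00000023990), regarded as the main driver of lysosomal genes, had 255, 263 and 259.6 normalized counts in the Stem libraries, 227, 209.9 and 225 in TGF-β, and 212, 208 and 233 in Both. It fell by 0.23 ± 0.081 (adjusted p = 0.0193, edgeR), which did not pass with DESeq2 (adjusted p = 0.0535), without a filter (adjusted p = 0.0759, edgeR) or without TGF-β replicate 2 (adjusted p = 0.0788, edgeR). Tfe3 (ENSMUSG00000000134) had 1623, 1483 and 1469 normalized counts in the Stem libraries, 1777, 1638 and 1672 in TGF-β, and 1703, 1579 and 1664 in Both. Its rise of 0.15 ± 0.053 (adjusted p = 0.0201, edgeR) left no overlap between Stem and TGF-β, and was lost without Stem replicate 3 (adjusted p = 0.0783) or without TGF-β replicate 1 (adjusted p = 0.0702), and when scaled to total counts (adjusted p = 0.636). The counts say nothing of where in the cell these proteins were.

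Of the 11 autophagy genes 7 rose and 1 fell, a share changed of 72.7% beside 75% of all genes tested, and Sqstm1 was the one past 2-fold. Sqstm1 (ENSMUSG00000015837), the cargo receptor p62, had 17387, 15929 and 16559.7 normalized counts in the Stem libraries, 47135, 54131 and 48676 in TGF-β, and 37904, 42272 and 39364 in Both. The groups formed 3 separate ranges, and the rise from Stem to TGF-β was 3.01-fold (log2 fold change 1.59 ± 0.061, adjusted p = 2.37e-10, edgeR). Gabarap, which encodes a ubiquitin-like protein of the autophagosome membrane, rose by 0.86 ± 0.043, from 6794 ± 323 to 12305 ± 284 normalized counts. Its relatives differed: Gabarapl2 rose by 0.22 ± 0.043, which was lost when scaled to total counts (0.10, adjusted p = 0.0945, edgeR). Gabarapl1 fell by 0.11 ± 0.035 (adjusted p = 0.0118, edgeR), which was lost without a filter (adjusted p = 0.0704) or without TGF-β replicate 1 (adjusted p = 0.0786). The LC3 genes Map1lc3a and Map1lc3b had log2 fold changes of 0.12 (95% interval 0.0062 to 0.24, adjusted p = 0.0537, edgeR) and 0.014 (95% interval -0.11 to 0.14, adjusted p = 0.827, edgeR), and their Stem and TGF-β libraries overlapped. Genes of this family resemble each other, and how reads with several alignments were counted is not given in the sources used here.

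Among the genes that start and build autophagosomes, Becn1 of the lipid kinase complex rose by 0.36 ± 0.040, Wipi1, a reader of the lipid that the complex makes, by 0.28 ± 0.039, Atg5, of the conjugation machinery, by 0.26 ± 0.052 and Atg7, its activating enzyme, by 0.22 ± 0.067. The call of Atg7 was lost when scaled to total counts (0.10, adjusted p = 0.218, edgeR). Ulk1, the kinase that starts autophagy, had a log2 fold change of -0.029 (95% interval -0.11 to 0.054, adjusted p = 0.504, edgeR).

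The other genes of the pathway, 152 listed by function and 147 tested, split 72 up and 45 down, with a median log2 fold change of 0.090. These were 79.6% of the list, beside 75% of all genes tested. The shares changed in the lists of hydrolases (75.9%), sorting genes (76.5%), membrane proteins and transporters (80%) and mTORC1 genes (82.6%) were near that background. That of other autophagy genes (62.5%) was below it. All of the 12 receptors, 3 cathepsin inhibitors and 16 V-ATPase subunits changed. These lists are short, and no difference from the background was tested. Apart from the V-ATPase, each list held both rises and falls. Lysosomal hydrolases and cofactors outside the main list split 11 up and 11 down of 29: Ctso, a cysteine cathepsin, fell by 1.14 ± 0.11 on the log2 scale, from 1198 ± 200.0 to 543 ± 30.5 normalized counts, and Gla, the α-galactosidase A, rose by 1.02 ± 0.062, from 1219 ± 122 to 2473 ± 58.4. Cathepsin inhibitors rose in 2 of 3 cases, Cst6 by 1.77 ± 0.10 (107 ± 2.60 to 365 ± 39.7 normalized counts) and Cstb by 1.27 ± 0.044 (1235 ± 34.3 to 2978 ± 135), while the third, the secreted inhibitor Cst3, fell by 0.31 ± 0.055. Of 15 other membrane proteins and transporters, 7 rose and 5 fell, and the extremes were Cln3, a protein of Batten disease, which fell by 1.60 ± 0.12 (269 ± 25.5 to 88.8 ± 3.35), and Tmem192, which rose by 1.38 ± 0.072 (333 ± 30.5 to 867 ± 42.8).

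The 17 genes that sort proteins to lysosomes rose in 9 cases and fell in 4. The largest changes were falls of sorting receptors: Sort1, sortilin, dropped by 1.93 ± 0.052 on the log2 scale, from 2221 ± 17.4 to 581 ± 37.1 normalized counts, and Igf2r, the cation-independent mannose 6-phosphate receptor, by 0.62 ± 0.039, from 30419 ± 569 to 19752 ± 353. Among 32 other autophagy genes 9 rose and 11 fell, with Tmem41b, a lipid scramblase, at 0.87 ± 0.038 and Vamp8, a SNARE of autophagosome fusion, at 0.86 ± 0.096. All 12 other autophagy receptors changed, 5 up and 7 down, where 75% of all genes tested changed. Retreg1, the receptor for endoplasmic reticulum, rose by 1.91 ± 0.14 (71.9 ± 14.9 to 270.4 ± 31.9) and Optn, optineurin, by 1.03 ± 0.052 (695 ± 37.2 to 1419 ± 24.4). Of 23 genes of mTORC1 and its regulators on the lysosome, 13 rose and 6 fell, led by Rragd, a Rag GTPase, at 2.04 ± 0.11 (199 ± 25.1 to 815 ± 101) and Ddit4, an mTORC1 inhibitor, at 1.99 ± 0.095 (908 ± 154 to 3612 ± 116).

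**Figure D4:**
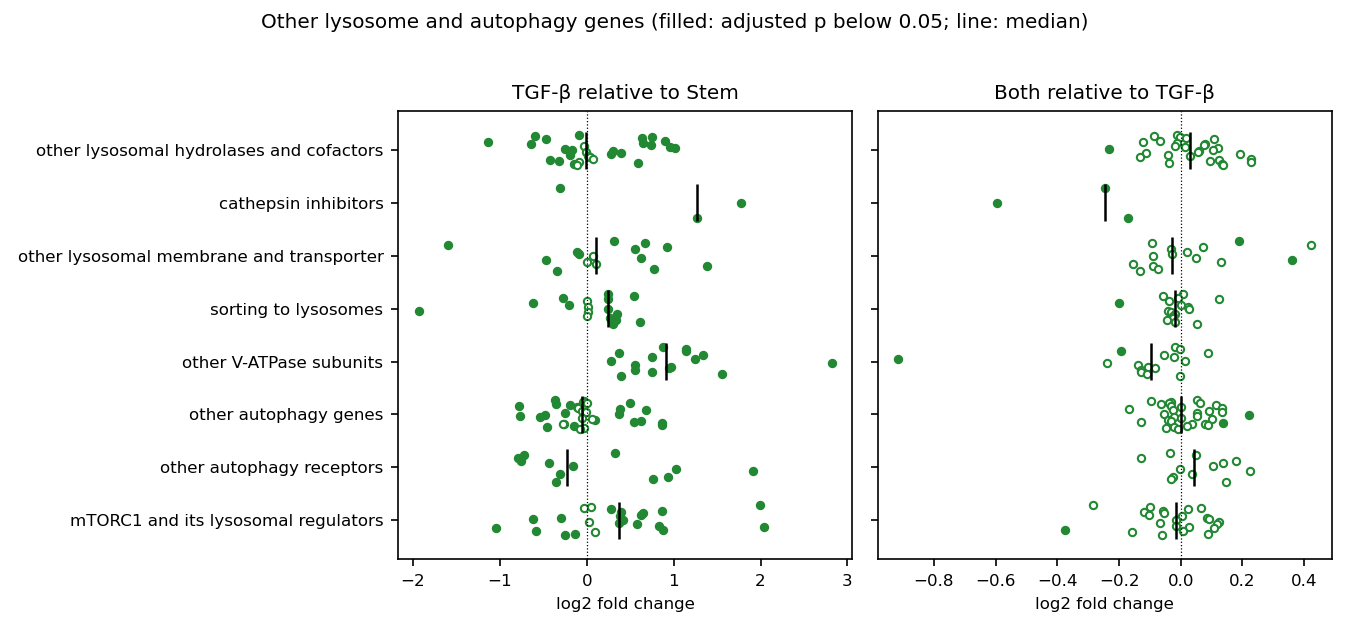
Log2 fold change (x axes) of each tested gene in 8 lists of other lysosome and autophagy genes (y axis), for TGF-β relative to Stem on the left and Both relative to TGF-β on the right. Filled circles had an adjusted p below 0.05, and vertical lines mark list medians. In the left panel the V-ATPase list is the one with all points above 0, and its median is 0.91.

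The second comparison, TGF-β against Both, asked what PFI-3 changed in stimulated cells, with the same TGF-β libraries as in the first. In the fit by group, 1 of the 43 rose with PFI-3 (Neu1) and 5 fell (Ctsc, Ctsk, Sqstm1, Ctsd and Npc2), and 37 did not pass. Over all genes tested 3.54% rose and 5.38% fell, so the number that fell was above that share and the number that rose was close to it. The median log2 fold change was -0.021 over the list and -0.0020 over all genes. In edgeR's test 0 of the 43 were past 2-fold, as by DESeq2 and at an unadjusted p below 0.05, where 0.161% of all genes rose and 0.47% fell that far. At an unadjusted p below 0.05, 3 genes were higher and 13 lower, beside 11.5% and 12.5% of all genes. With the replicate number as a block, 2 rose and 14 fell, where 7.06% of all genes rose and 8.46% fell. The 10 genes added by the block were Hexa, which was higher, and Ctsh, Ctsl, Gusb, Man2b1, Cd63, Psap, Atp6v0d1, Gabarapl1 and Ulk1, which were lower.

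The genes that fell were hydrolases, a cargo receptor and a cholesterol carrier. Ctsc fell from 854 ± 104 to 605 ± 58.4 normalized counts, by 0.50 ± 0.095 on the log2 scale (95% interval -0.71 to -0.29, adjusted p = 0.00729, edgeR), and was 22.2-fold above Stem in Both. Ctsk fell from 9583 ± 179 to 6842 ± 191, by 0.49 ± 0.087 (95% interval -0.68 to -0.30, adjusted p = 0.00494, edgeR), and was 1.47-fold above Stem in Both. Sqstm1 fell from 49980.4 ± 3676 to 39847 ± 2224, by 0.33 ± 0.059 (95% interval -0.46 to -0.20, adjusted p = 0.00523, edgeR), and Ctsd from 57486 ± 1165 to 48944 ± 816, by 0.23 ± 0.038 (adjusted p = 0.00285, edgeR). In each of these 4 genes all Both libraries were below all TGF-β libraries and above all Stem libraries.

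Npc2 had the smallest of these changes, from 23851 ± 290.4 to 21792 ± 318 normalized counts; it fell by 0.13 ± 0.033 (adjusted p = 0.0297, edgeR). It was lost when any library of TGF-β or Both or Stem replicate 3 was left out, with adjusted p between 0.0579 and 0.120, and also with total counts (adjusted p = 0.0737) or no filter (adjusted p = 0.0742). Neu1 was the gene that went up, from 2336 ± 96.5 to 2725 ± 146 normalized counts, by 0.22 ± 0.053 (95% interval 0.11 to 0.34, adjusted p = 0.0223, edgeR), and all its Both libraries were above all TGF-β libraries. This call was lost without TGF-β replicate 2, TGF-β replicate 3, Both replicate 1 or Both replicate 3, with adjusted p between 0.0803 and 0.112. The MiT factors did not pass, at -0.018 (95% interval -0.19 to 0.16) for Tfeb, -0.040 (-0.15 to 0.074) for Tfe3 and 0.029 (-0.13 to 0.19) for Mitf; 0 of the 3 passed at an unadjusted p below 0.05 or by DESeq2.

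**Figure D5:**
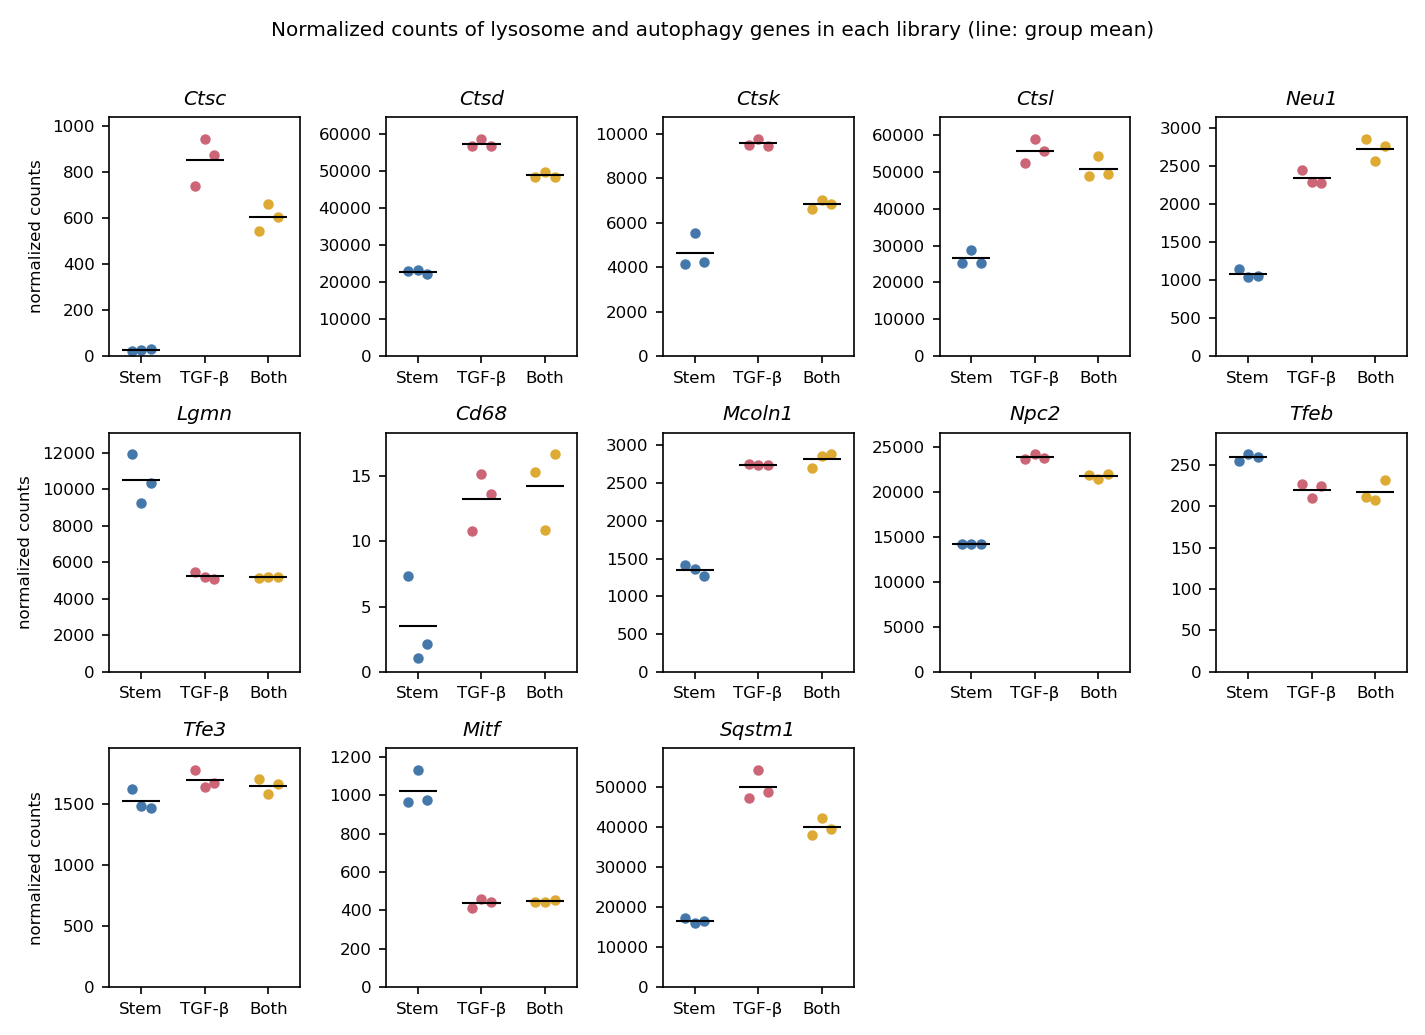
Normalized counts (y axes, from 0) in each of the 9 libraries by group (x axes) for the 13 genes given library by library, with black lines at the group means. Ctsc, Ctsd, Ctsk and Sqstm1 lie lower in Both than in TGF-β and above Stem, Neu1 lies higher in Both, and Lgmn, Mitf and Mcoln1 overlap between TGF-β and Both.

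The count in this comparison also depended on single libraries, and it was larger when only the 6 libraries compared were fitted, as given in the last section. Without Stem replicate 2, a library of neither group, 12 genes fell and 2 rose. The share of all genes called in that fit is not given here, so these counts do not show a change particular to the list. The cause was not tested. Among the genes just outside the threshold were Gabarapl1, at -0.12 (95% interval -0.20 to -0.044, adjusted p = 0.0541, edgeR), Cd63, at -0.12 (-0.19 to -0.043, adjusted p = 0.0560, edgeR), Gusb, at -0.15 (-0.25 to -0.049, adjusted p = 0.0685, edgeR), Ulk1, at -0.12 (-0.20 to -0.037, adjusted p = 0.0727, edgeR), and Hexa, at 0.15 (0.038 to 0.26, adjusted p = 0.0917, edgeR). In these genes too the TGF-β and Both libraries did not overlap. The same held further from the threshold, as for Lamp1 (adjusted p = 0.279, edgeR) and Atp6v1a (adjusted p = 0.372, edgeR). The share of all genes tested without overlap is not given here, so this trait does not set the genes apart. All of these genes were named here after their values were seen.

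Of the 147 other pathway genes, 4 rose and 8 fell with PFI-3, or 2.72% and 5.44%, near the 3.54% and 5.38% of all genes tested, and their median log2 fold change was -0.013. With the replicate block 16 rose and 15 fell, where 7.06% and 8.46% of all genes did. All 3 cathepsin inhibitors fell: Cst6 by 0.60 ± 0.093, from 365 ± 39.7 to 241 ± 14.6 normalized counts (adjusted p = 0.00204, edgeR), Cst3 by 0.24 ± 0.055 and Cstb by 0.17 ± 0.042. Igf2r fell by 0.20 ± 0.039, from 19752 ± 353 to 17201 ± 688 (adjusted p = 0.00847, edgeR), and Sesn2, an inhibitor of mTORC1 signalling, by 0.38 ± 0.040, from 2155 ± 24.2 to 1660.0 ± 38.6 (adjusted p = 1.73e-04, edgeR). The falls also held Gm2a, a lipid transfer cofactor of β-hexosaminidase, at -0.23 ± 0.052, and the V-ATPase genes Atp6v0a1, at -0.19 ± 0.042, and Atp6v0d2, at -0.92 ± 0.24 but with only 23.8 ± 1.54 normalized counts in the TGF-β group and 12.6 ± 2.59 in Both. Those that rose were Scarb2, the receptor that brings β-glucocerebrosidase to lysosomes, by 0.36 ± 0.045 (27201 ± 154 to 34938 ± 1824 normalized counts, adjusted p = 4.95e-04, edgeR), Epg5, a tether of autophagosome fusion, by 0.22 ± 0.043, the sialomucin Cd164 by 0.19 ± 0.045 and Tmem41b by 0.14 ± 0.037. The 3 V-ATPase genes of the main list did not pass, at -0.11 ± 0.055 for Atp6v0d1, -0.067 ± 0.043 for Atp6v1a and 0.015 ± 0.043 for Atp6v1h; 0 of the 3 passed at an unadjusted p below 0.05 or by DESeq2, whereas Atp6v0d1 passed with the replicate block (adjusted p = 0.0381, edgeR). These pathway genes, apart from Cst6, Cstb, Igf2r and Tmem41b, were named here after their values were seen.

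The third comparison set Both against Stem. It shares the Stem libraries with the first and the Both libraries with the second, so it is not independent of them. Of the 43 genes 23 were higher in Both and 12 lower, where 36.6% of all genes tested were higher and 36.6% lower, and the median log2 fold change was 0.27. Past 2-fold, 6 were higher (Ctsc, Cd68, Neu1, Sqstm1, Ctsd and Mcoln1) and 2 lower (Mitf and Lgmn), against 9.55% and 13.2% of all genes. Here too Cd68 had passed the low-count filter only through the stimulated libraries, and no conclusion is drawn from its value. The log2 fold changes were 4.47 ± 0.15 for Ctsc, 1.97 ± 0.48 for Cd68 (3.06 without Stem replicate 1), 1.34 ± 0.056 for Neu1, 1.26 ± 0.060 for Sqstm1, 1.10 ± 0.038 for Ctsd and 1.06 ± 0.046 for Mcoln1. Those of Ctsl and Ctsk, past 2-fold between Stem and TGF-β, were 0.94 ± 0.064 and 0.56 ± 0.088. Mitf fell by 1.19 ± 0.070 and Lgmn fell by 1.02 ± 0.072 on the log2 scale.

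Genes that differed from Stem in only 1 of the stimulated groups had small changes. Psap and Ulk1 passed against Both, at -0.19 ± 0.051 (adjusted p = 0.00539, edgeR) and -0.15 ± 0.038 (adjusted p = 0.00367, edgeR), but not against TGF-β. Gusb, Atg7 and Tfe3 passed against TGF-β but not against Both, where their log2 fold changes were 0.039 ± 0.047, 0.071 ± 0.067 and 0.11 ± 0.053. The direct test between TGF-β and Both did not pass for any of these 5 genes in the fit by group. With the replicate block it passed for Gusb, Psap and Ulk1 (adjusted p = 0.00932, 0.0357 and 0.0487, edgeR), each lower in Both, and Tfe3 then also passed against Stem in Both (adjusted p = 0.0190, edgeR).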

How the data were processed

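RNA-Seq was measured in 9 libraries of ribosome-depleted total RNA. The authors deposited 1 table of raw read counts per Ensembl gene, without normalization. The paper names Flexbar, STAR and GRCm39, whereas the submitters' processing notes name HISAT2 2.2.1, SAMtools 1.13, HTSeq 0.11.3 and GRCm39; strand setting and handling of multi-mapped reads are not given in the sources used here.

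Counts were analysed in R 4.3.3. Genes were kept by filterByExpr of edgeR 4.0.16, scaled by TMM and fitted by group over the 9 libraries, and 14879 genes were tested by the quasi-likelihood test with Benjamini-Hochberg adjustment. Normalized counts are scaled to an effective library of 41184300, where the floor of 3 counts is 2.63 to 3.26. Errors are SD for levels and SE for log2 fold changes, and intervals are 95%. Symbols came from a list of gene names matched by Ensembl identifier. Exon lengths came from GENCODE M21 on GRCm38, so no coordinates of the count table are given. Promoter sequences and their coordinates are from RefSeq, GRCm38.p6. The study calls its replicates biological and independent, from cells of pooled mice of both sexes; whether each library came from a separate isolation is not given in the sources used here, so p-values measure the spread between these libraries.

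The list, the pathway and marker lists and the tests were chosen with earlier results of these data known. All 44 genes are named. Values in every library are given for genes past 2-fold in a comparison, for the 3 largest calls of each sign in TGF-β versus Both and for the MiT factors. Those of Npc2, and of Lamp2 in the Stem libraries only, were added after their values were seen. Of each pathway list the 2 largest calls in Stem versus TGF-β with at least 100 mean normalized counts are named. Simulated counts were used to test the pipeline. Alternatives were DESeq2 1.42.0 in place of edgeR, scaling by its size factors or by total counts, the filter dropped or replaced by a mean count of 10, only the 6 libraries compared, the replicate block and each library left out in turn. The CUT&RUN, qPCR and animal data were not analysed here. Csta2 was not matched to an identifier.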

Additional observations from a re-analysis of the deposited data

How the results depend on the processing

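No called gene of the list changed sign in any alternative that gave it a value, 16 for each gene and comparison except Cd68 in Stem versus TGF-β, which had 15 (with only 6 libraries it was filtered out). Of the calls, 30 of 36 between Stem and TGF-β, 4 of 6 between TGF-β and Both, and 33 of 35 between Stem and Both held in all that were run for them. Depth was not below 35686291 counts in any library, and it limits Cd68 and Ctss.

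Scaling to total counts moved the median of all genes to -0.12 (Stem versus TGF-β) and -0.11 (Stem versus Both). It gave list medians of 0.14 and 0.16, and left 4 genes past 2-fold higher in TGF-β. Ctsf then joined Mitf and Lgmn past 2-fold lower. Gabarapl2, Gusb, Atg7 and Tfe3 did not pass between Stem and TGF-β under that scaling (adjusted p = 0.0945, 0.138, 0.218 and 0.636, edgeR). Without a filter, 1 gene was past 2-fold lower in TGF-β, 2 rose with PFI-3, and 7 other pathway genes did. With only the 6 libraries compared, 4 genes rose and 12 fell with PFI-3, and 18 and 15 of the other pathway genes. Shares of all genes called are given here for the main fit, the replicate block and an unadjusted p, not for the other alternatives. Counts under those others therefore do not show a change particular to the lists. With a replicate block, 2 rose and 14 fell, and 16 and 15 of the other pathway genes. Whether the numbers pair the samples depends on the genes used. Over the 14879 tested genes, deviations of same-numbered libraries correlated between -0.0539 and 0.196, with 4 of 9 pairs over 0.1. Over the 4904 genes with a mean log2 CPM over 5, the range was 0.0375 to 0.688 with 8 of 9 over 0.1, among them all 3 pairs of TGF-β with Both (0.342, 0.688 and 0.200), and the median of differently numbered pairs was -0.297. Neither the labels nor the study say what a number marks.

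Leaving out each library in turn gave 1 to 2 genes past 2-fold lower in TGF-β and in Both relative to Stem. For TGF-β versus Both it gave 0 to 2 genes higher, 4 to 12 lower, a list median of -0.039 to -0.016, and 2 to 17 and 3 to 12 other pathway genes. These counts too have no share of all genes beside them, so they do not show a change particular to the lists.

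Some uncalled values changed sign. Map1lc3b was -0.10 between Stem and TGF-β with total counts, and between -0.020 and 0.086 with a library left out; Lamp2 ranged from -0.11 to 0.10 and Psap from -0.097 to 0.00041. Between TGF-β and Both, Lgmn ranged from -0.039 to 0.012, Cd68 from -0.012 to 0.27, Tfeb from -0.070 to 0.0098 and Mitf from -0.012 to 0.060.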
